A study of Mus musculus with 6 samples.

Results

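The genes described are 10 collagen chains of the interstitial matrix, chosen by symbol from the 55450 genes of the matrix: Col1a1, Col1a2, Col3a1, Col5a1, Col5a2, Col5a3, Col6a1, Col6a2, Col6a3 and Col14a1. Their unique molecule counts (UMIs, 1 per captured RNA molecule) were summed per cell class and library and expressed as CPM, the UMIs of a gene per 1000000 UMIs of that class. The cells came from mouse aortic tissue and were captured in droplets on the 10x Genomics platform. GEO's labels name 3 samples with the genotype Best3SMKO and 3 with the genotype Best3FL/FL. Best3 encodes bestrophin 3, of a family of chloride channel proteins. Age, sex, strain, the Cre driver, any treatment and any pooling of animals are not stated by the labels.

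The 60871 barcodes carry 6 suffixes, which separate 6 libraries but match no sample label. No cell could therefore be tied to a genotype, no comparison of Best3SMKO with Best3FL/FL was made, and no difference between classes or clusters was given a p-value. Best3 itself had 26 UMIs in the matrix, of which 20 lay in smooth muscle-like and 3 in fibroblast-like cells, so it could not check a label. The smallest library had 7475 barcodes and the largest 16269, UMI totals ran from 51813179 to 96144873, and 414 barcode sequences occurred in more than 1 library. Library 5 stood apart, with 17.8% immune cells against 7.04% to 12.4% elsewhere, and with most of the B cell-like and epithelial cell-like cells. Results were therefore also computed without each library in turn.

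Fibrillar collagens form the load-bearing cables of tissue. Type I is a trimer of products of Col1a1 and Col1a2, type III is a homotrimer of the Col3a1 product, and type V (Col5a1, Col5a2, Col5a3) co-assembles with type I and governs fibril initiation and diameter. Type VI (Col6a1, Col6a2, Col6a3) forms beaded filaments close to cells, and type XIV (Col14a1) is a fibril-associated collagen that binds to the surface of fibrils. In the aorta, fibroblasts lay down much of the collagen of the adventitia, and smooth muscle cells make the collagen between the elastic layers of the media.

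On GRCm38, in the GENCODE M21 annotation, Col3a1 (chr1:45311538-45349706, plus strand) and Col5a2 (chr1:45374321-45503282, minus strand) are neighbours, 24614 bases apart. Col6a2 (chr10:76595762-76623630) and Col6a1 (chr10:76708792-76726168) lie on the same strand with 85161 bases between them. Col6a3 lies on the same chromosome as the first pair (chr1:90765923-90843971), and Col1a1 (chr11:94936224-94953042) and Col1a2 (chr6:4504814-4541544), whose products share a trimer, lie on different chromosomes. Col5a1 lies at chr2:27886425-28039514, Col5a3 at chr9:20770050-20815067 and Col14a1 at chr15:55307750-55520803.

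Promoter sequences are shown for Col3a1, which is high in fibroblast-like cells, for Col5a1 and Col5a3, 2 type V chains with different patterns over the cell classes, and for Col6a3, the chain whose level differs least between fibroblast-like and smooth muscle-like cells. Each is the 250 bases before the RefSeq gene start on GRCm38.p6, and none of these 4 windows overlaps an exon of its own gene in GENCODE M21. Their positions are Col3a1 chr1:45311288-45311537 (plus strand), Col5a1 chr2:27886175-27886424 (plus strand), Col5a3 chr9:20815068-20815317 (minus strand) and Col6a3 chr1:90843972-90844221 (minus strand). Capitals mark TATAAA (the TATA box core), CCAAT (the CCAAT box core) or GGGCGG (a GC box core) read on either strand, and no 2 of these matches overlap here.
Col3a1: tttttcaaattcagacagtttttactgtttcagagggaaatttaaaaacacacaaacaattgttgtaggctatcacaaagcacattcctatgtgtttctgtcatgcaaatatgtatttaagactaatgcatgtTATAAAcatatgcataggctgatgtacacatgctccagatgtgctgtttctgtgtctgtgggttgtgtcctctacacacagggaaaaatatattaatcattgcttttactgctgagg
Col5a1: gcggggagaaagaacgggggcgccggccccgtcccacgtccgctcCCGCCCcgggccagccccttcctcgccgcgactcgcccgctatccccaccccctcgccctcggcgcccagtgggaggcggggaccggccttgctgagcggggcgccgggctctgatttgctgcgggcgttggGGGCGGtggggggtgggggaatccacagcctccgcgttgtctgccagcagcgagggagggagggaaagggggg
Col5a3: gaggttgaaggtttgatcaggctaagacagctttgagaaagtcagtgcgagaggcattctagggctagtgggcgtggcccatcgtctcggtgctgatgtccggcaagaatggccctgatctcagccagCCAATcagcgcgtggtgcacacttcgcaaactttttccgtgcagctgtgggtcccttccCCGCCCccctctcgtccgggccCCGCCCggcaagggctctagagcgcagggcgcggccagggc
Col6a3: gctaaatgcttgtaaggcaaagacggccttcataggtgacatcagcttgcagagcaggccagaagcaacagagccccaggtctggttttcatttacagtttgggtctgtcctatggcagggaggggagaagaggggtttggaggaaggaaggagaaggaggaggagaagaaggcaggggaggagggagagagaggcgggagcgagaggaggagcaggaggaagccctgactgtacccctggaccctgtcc
TATAAA was found in the Col3a1 window, starting 117 bases before the gene start. The Col5a1 window holds GGGCGG in 2 places and is 76.4% G or C, against 35.2% for Col3a1. The Col5a3 window holds CCAAT 122 bases before the start and GGGCGG in 2 places, and the Col6a3 window holds none of the 3 motifs. Over all 32851 promoter windows of the RefSeq table, 12.4% hold TATAAA, 33.8% CCAAT and 32.7% GGGCGG, so matches of this kind are common. They describe letters and not sites in use. The table holds 7 of the 10 members, and Col1a1, Col5a2 and Col14a1 are named only.

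Cells were grouped by clustering that left out the 10 collagens and 75 other genes of collagen biology, so that the classes do not rest on these genes. Of 51097 cells, 16339 were called fibroblast-like and 12412 smooth muscle-like. Summed markers were 28735 CPM for the fibroblast list and 2262 CPM for the smooth muscle list in fibroblast-like cells, while in smooth muscle-like cells the same lists summed to 498 CPM and 52537 CPM. Endothelial cell-like (8452), macrophage-like (3361), Schwann cell-like (1640), lymphatic endothelial cell-like (1544), monocyte-like (1200), T cell-like (849), B cell-like (494) and epithelial cell-like (358) cells made up the other named classes. A further 4448 cells stayed unnamed.

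The 10 collagens together had 2008188 UMIs in kept cells, of which fibroblast-like cells held 70.9% and smooth muscle-like cells 20.6%. Their summed level was 12941 CPM in fibroblast-like cells (libraries 10402 to 14791 CPM), while smooth muscle-like cells had 3149 CPM (2782 to 3405 CPM). By type, fibroblast-like cells held 77.2% of type I UMIs, 56.7% of type VI UMIs and 52.8% of type V UMIs. Among the 10 named classes, 9 of the 10 genes were highest in fibroblast-like cells, in 6 of 6 libraries each. The exception was Col5a3, which was highest in Schwann cell-like cells in 6 of 6 libraries.

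That count depends on how 1 unnamed cluster is treated. Cluster 13 (906 cells, 861 of them in library 5, led by Saa3, Upk3b and Cxcl10) scored close to both the mesothelial and the fibroblast marker lists. Its levels were 2405 CPM for Col3a1, 316 CPM for Col5a2, 892 CPM for Col6a1, 810 CPM for Col6a2 and 599 CPM for Col6a3, each above the fibroblast-like level of the same gene. Where a finer clustering or keeping doublets gave these cells the name mesothelial cell-like, 4 of 10 members remained highest in fibroblast-like cells. Since nearly all of its cells come from library 5, this cluster and that library cannot be told apart.

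**Figure D1:**
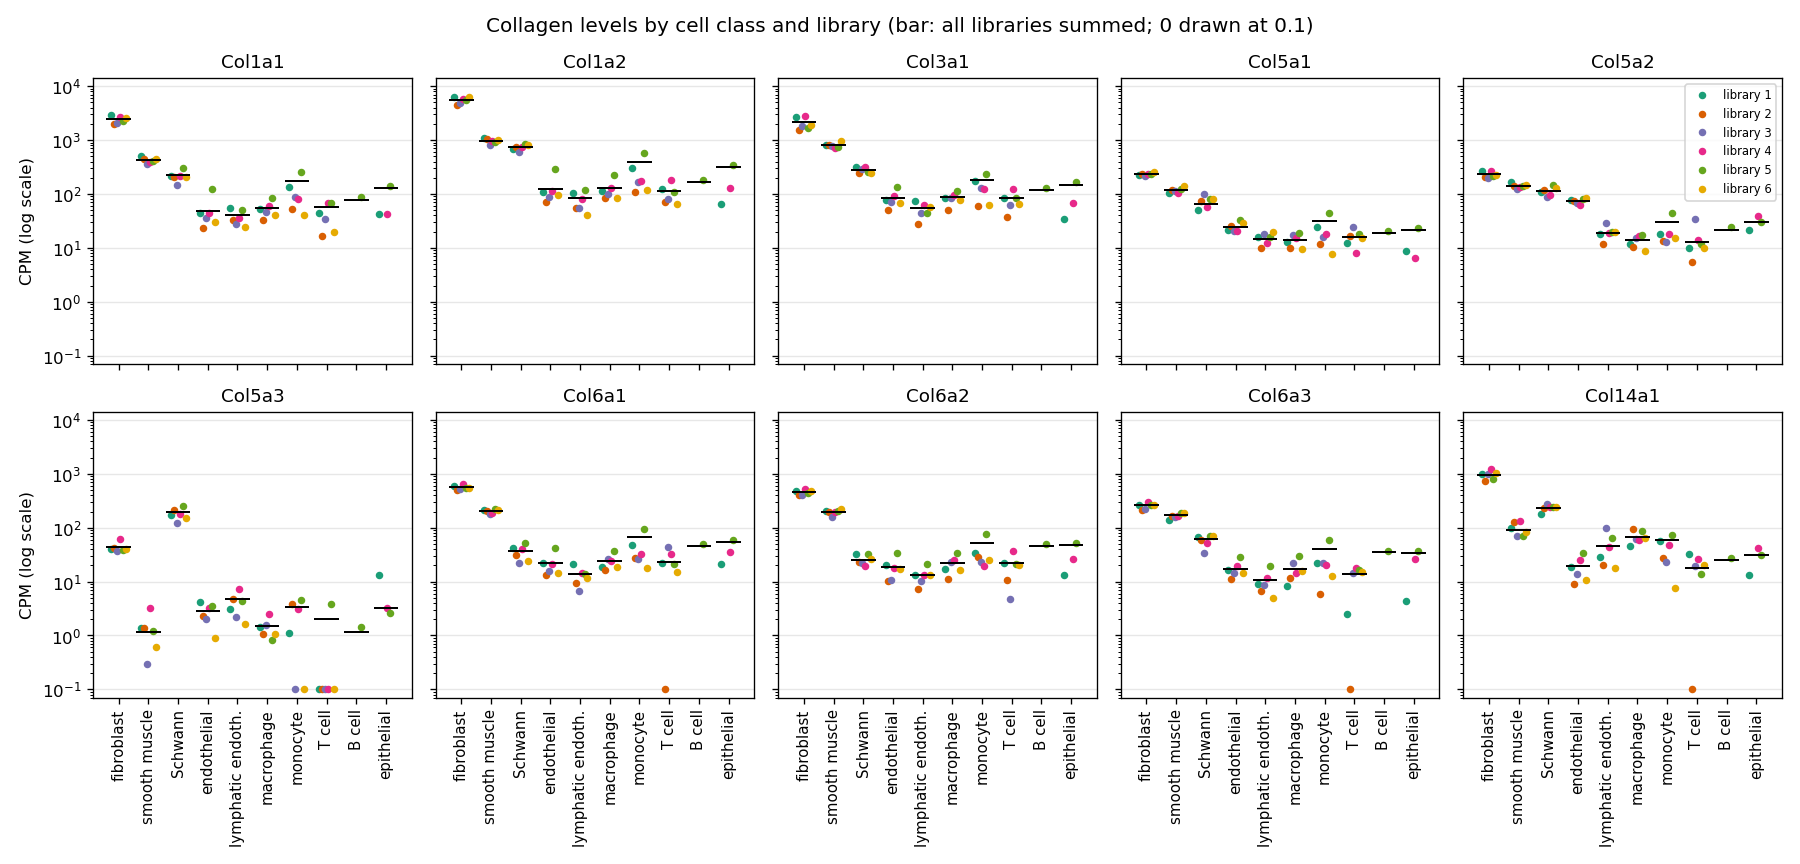
CPM of each collagen (log axis) in 10 cell classes, with a point for every library in which the class had 20 cells or more, and a bar for all libraries summed; values of 0 are drawn at 0.1. Fibroblast-like cells are highest in 9 of the 10 panels, and Schwann cell-like cells in the Col5a3 panel.

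Fibroblast-like and smooth muscle-like cells are the 2 classes that hold most of these UMIs, and each gene was compared between them. A gene was called when the summed levels differed at least 2-fold and the direction was the same in every library with at least 20 cells of both classes, which here were all 6. By this rule 7 of 10 members were higher in fibroblast-like cells, against 15.9% of the 9463 genes that reached 10 CPM in either class, and 0 of 10 were lower, against 10.4%. The median log2 ratio was 1.43 over the members and 0.05 over all genes compared. All 10 members were higher in fibroblast-like cells in 6 of 6 libraries; Col5a1, Col5a2 and Col6a3 did so by less than 2-fold. These are descriptions of 1 pooled data set, and intervals below are exact 95% Poisson intervals that cover counting error only.

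The type I chains moved together. Col1a1 had library levels from 1988 to 2903 CPM with a median of 2455 CPM in fibroblast-like cells, against 361 to 512 CPM with a median of 430 CPM in smooth muscle-like cells. The ranges lie far apart, and the summed ratio was 5.70 (4.47 to 6.70 over libraries). Col1a2 ranged from 4554 to 6335 CPM with a median of 5627 CPM in fibroblast-like cells, and from 826 to 1087 CPM with a median of 974 CPM in smooth muscle-like cells. Its ratio of 5.74 (4.38 to 6.20 over libraries) was close to that of Col1a1.

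Col3a1, the type III chain, differed less between the classes. Its library levels were 1517 to 2822 CPM with a median of 1865 CPM in fibroblast-like cells and 715 to 963 CPM with a median of 798 CPM in smooth muscle-like cells. The groups do not overlap, yet the ratio of 2.61 varied from 1.86 to 3.95 between libraries, and in some libraries it lay under 2. Col3a1 held 28.4% of its kept UMIs in smooth muscle-like cells, compared with 16.1% for each type I chain.

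The 3 type V chains did not share a pattern. Col5a1, which encodes the alpha1 chain of the main type V trimer, ranged from 220 to 260 CPM in fibroblast-like cells (median 238 CPM) and, in smooth muscle-like cells, 105 to 143 CPM (median 116 CPM). Col5a2, the alpha2 chain, ranged from 199 to 272 CPM in fibroblast-like cells (median 220 CPM) and, in smooth muscle-like cells, 124 to 168 CPM (median 141 CPM). Neither pair of ranges overlaps, but the ratios of 1.97 and 1.64 stayed under the 2-fold limit. Col5a1 was under it only narrowly, and it passed in several of the alternatives given with the limits.

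Col5a3 encodes the rarer alpha3 chain, known from a type V form with 3 different chains. It had 37.7 to 61.9 CPM in fibroblast-like libraries (median 39.9 CPM) and 0.292 to 3.24 CPM in smooth muscle-like libraries (median 1.27 CPM). The summed values were 44.2 CPM (interval 42.9 to 45.4) in fibroblast-like cells and 1.16 CPM (0.980 to 1.36, from 152 UMIs) in smooth muscle-like cells, a ratio of 38.2. In T cell-like cells, a class not known to make this collagen, it was 1.99 CPM (interval 0.729 to 4.32), from 6 UMIs, all in library 5. That interval contains the smooth muscle-like level, which is therefore not distinguished from background. T cell-like cells were also shallower (median 3329 against 10766.5 UMIs), which was not adjusted for. Among the 10 members, Col5a3 was the one not distinguished from background in smooth muscle-like cells. Its log2 ratio of 5.26 was 4.02 when cells had at most 10% mitochondrial UMIs and 3.78 when classes came from markers of single cells.

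Of the type VI chains, Col6a1 had 507 to 646 CPM in fibroblast-like cells (median 555 CPM) and, in smooth muscle-like cells, 178 to 219 CPM (median 208 CPM), a ratio of 2.79. Col6a2 had 401 to 523 CPM in fibroblast-like cells (median 463 CPM) and, in smooth muscle-like cells, 161 to 220 CPM (median 201 CPM), a ratio of 2.33. The third chain, Col6a3, differed less. It had 212 to 299 CPM in fibroblast-like cells (median 268 CPM) and, in smooth muscle-like cells, 142 to 189 CPM (median 168 CPM), and its ratio of 1.53 was the smallest of the 10.

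Col14a1, the fibril-associated chain, had the second largest ratio. It ranged from 732 to 1253 CPM in fibroblast-like cells (median 984 CPM) and, in smooth muscle-like cells, 70.7 to 135 CPM (median 90.7 CPM), which gave 10.5 (5.63 to 13.9 over libraries). It was also the member with the largest share of its UMIs in fibroblast-like cells, 83.6%.

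**Figure D2:**
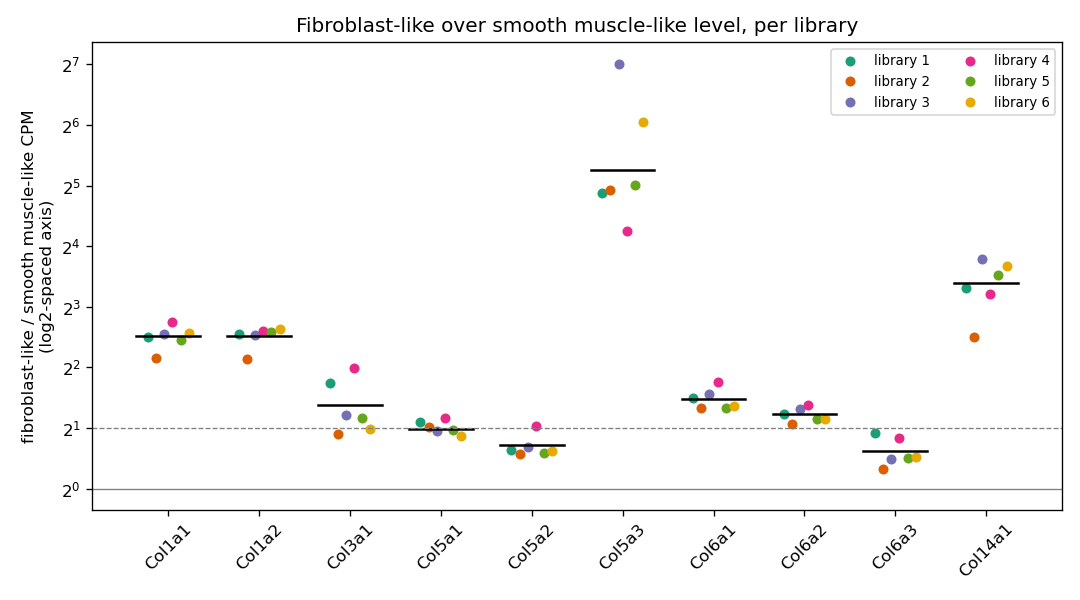
Ratio of fibroblast-like to smooth muscle-like CPM (axis spaced by log2) for each collagen, with a point per library and a bar for all libraries summed; the solid line marks 1 and the dashed line 2. All points lie above 1, and Col5a3 (38.2) and Col14a1 (10.5) have the largest summed ratios.

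The UMI ratio of a pair of chains keeps what is fixed for each gene, such as transcript length and capture. These factors cancel only when the ratio is compared between classes or libraries. A single ratio is therefore not read as a ratio of molecules or of proteins. Col1a1 to Col1a2 was 0.442 in fibroblast-like and 0.445 in smooth muscle-like cells, and the library ranges overlap (0.414 to 0.469 and 0.424 to 0.471). In Schwann cell-like cells it was 0.296 (0.241 to 0.359), below both. Col3a1 to Col1a2 was 0.384 in fibroblast-like cells (0.306 to 0.493), 0.379 in Schwann cell-like cells and 0.844 in smooth muscle-like cells (0.742 to 0.960). As whole classes, smooth muscle-like cells thus had more type III message beside their type I message in all 6 libraries, with no overlap. The fibroblast-like clusters described below differed in this respect. Col3a1 and Col1a2 were 1844 and 6605 CPM in cluster 1, 2462 and 4815 CPM in cluster 2 and 525 and 1318 CPM in cluster 18. They lay closer together in cluster 10 (2805 and 3675 CPM) and cluster 19 (2799 and 3871 CPM).

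Type V and type VI ratios also differed between classes. Col5a1 to Col5a2 was 1.01 in fibroblast-like, 0.836 in smooth muscle-like, 0.587 in Schwann cell-like and 0.337 in endothelial cell-like cells. The fibroblast-like and smooth muscle-like library ranges overlap (the lowest fibroblast-like value was 0.861 and the highest smooth muscle-like value 0.975), while the endothelial range (0.278 to 0.410) lies apart from both. Col6a1 to Col6a2 was 1.24 in fibroblast-like cells (1.15 to 1.31) and 1.04 in smooth muscle-like cells (0.958 to 1.10). Col6a3 to Col6a1 was 0.455 in fibroblast-like cells (0.418 to 0.486), 0.828 in smooth muscle-like cells (0.665 to 0.885) and 1.61 in Schwann cell-like cells (1.30 to 2.81 over 5 libraries). These 3 ranges do not overlap. The Schwann cell-like ratio is uncertain, because Col6a1 had 22.2 to 51.4 CPM over libraries there, which overlaps its T cell-like range of 0 to 43.6 CPM.

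**Figure D3:**
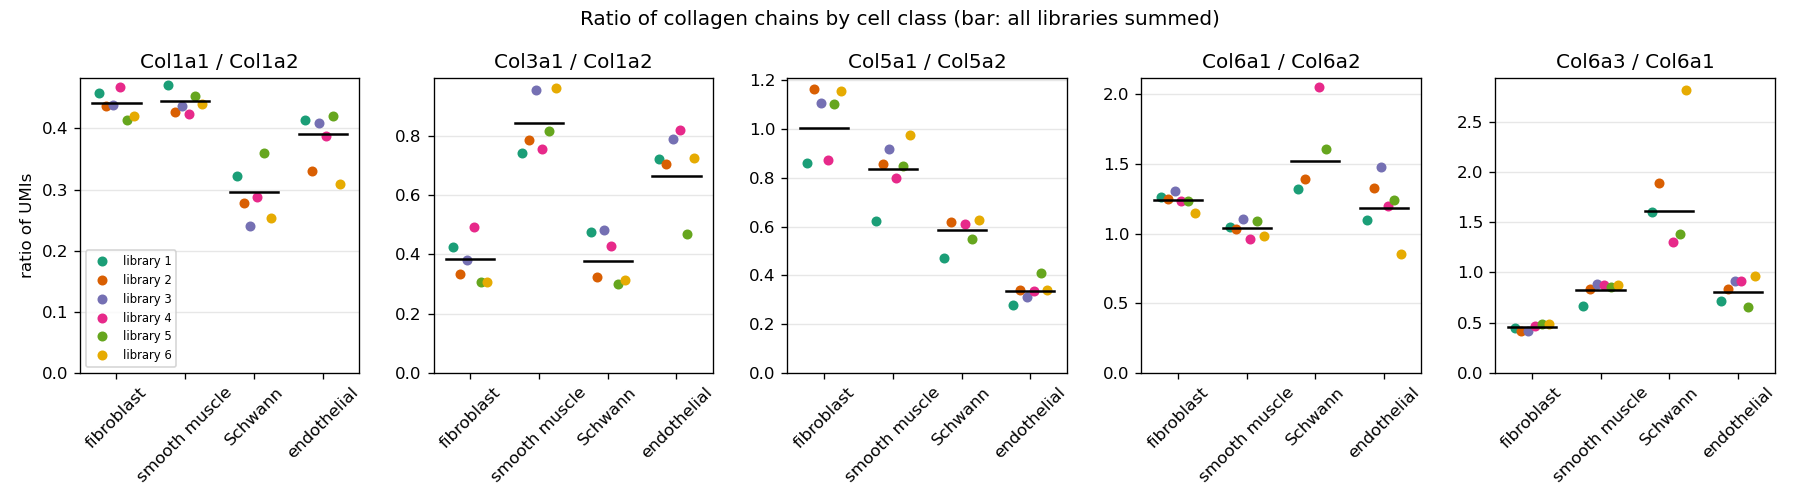
UMI ratios of 5 chain pairs in fibroblast-like, smooth muscle-like, Schwann cell-like and endothelial cell-like cells (linear axes from 0), with a point per library and a bar for all libraries summed. Col3a1 / Col1a2 is higher in smooth muscle-like (0.844) than in fibroblast-like cells (0.384), and Col6a3 / Col6a1 is highest in Schwann cell-like cells (1.61).

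Smooth muscle-like cells formed 1 cluster. They were therefore clustered again together with an unnamed neighbouring cluster that scored for both smooth muscle and pericyte markers, and the 9 resulting clusters are called mural clusters. Each was compared with the other mural cells by the same 2-fold rule. Clusters 0 (5071 cells) and 1 (3612 cells), which held most of the cells, had 0 members past the rule, where 0.0116% of genes were higher and 2.61% lower in cluster 0, and 0.0584% higher and 1.13% lower in cluster 1.

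Mural cluster 5 (505 cells in 6 libraries, named smooth muscle-like, led by Olfr558, Nrip2, Pln and Rergl) was low in nearly all of these collagens. The 10 genes summed to 651 CPM there and to 3116 CPM in the other mural cells. By the rule 8 members were lower and 0 higher, against 9.22% and 10.7% of 9125 genes. Its smooth muscle markers summed to 45679 CPM, within the range of the other mural clusters (33072 to 76698 CPM).

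Within cluster 5 the fibrillar chains were the most reduced. Col3a1 had 34.6 to 94.6 CPM over libraries in cluster 5, against 720 to 957 CPM in the other mural cells, and was lower by a factor of 12.7. Col5a2 was lower by a factor of 11.3 (12.4 against 140 CPM), Col5a1 by 8.93 (13.1 against 117 CPM), Col1a1 by 5.90 (72.3 against 427 CPM) and Col1a2 by 4.90 (192 against 942 CPM). T cell-like cells, a class that should lack these collagens, had Col3a1 at 84.1 CPM, above its level in cluster 5. They had Col5a1 at 15.9 CPM (interval 11.7 to 21.1) and Col5a2 at 12.9 CPM (9.18 to 17.7), and these intervals contain the cluster 5 levels. The Col3a1, Col5a1 and Col5a2 levels in cluster 5 are therefore not distinguished from background. Col1a2 lay above its T cell-like level (115 CPM).

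Type VI chains separated in the same cells. Col6a1 had 56.2 CPM in cluster 5 against 211 CPM in the other mural cells, and Col6a2 had 43.9 against 199 CPM. Col6a3 had 144 to 215 CPM over libraries in cluster 5 and 150 to 197 CPM in the other mural cells. These ranges overlap, and Col6a3 was higher in cluster 5 in 3 of 6 libraries. The summed values were 166 CPM (interval 154 to 178) in cluster 5 and 177 CPM in the other mural cells.

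Mural cluster 6 (400 cells in 6 libraries) was named pericyte-like and was led by Colec11, Kcnk3 and Vtn. Its pericyte list summed to 4614 CPM, below the 8877 CPM of mural cluster 2, which is led by the pericyte marker Rgs5, and the 5590 CPM of mural cluster 7, both named smooth muscle-like. By the rule 3 members were higher in cluster 6 and 0 lower, against 10.8% and 5.60% of 9567 genes. Col5a3 had 44.6 to 97.0 CPM over libraries in cluster 6, against 0.286 to 4.10 CPM in the other mural cells, and the summed ratio was 51.5. Col6a1 was 598 CPM in cluster 6 against 198 CPM, and Col6a2 440 against 190 CPM.

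Other members did not follow in cluster 6. Col3a1 was 1229 CPM against 780 CPM and Col6a3 270 against 175 CPM, both higher in 6 of 6 libraries and under 2-fold. Col1a2, at 796 CPM against 922 CPM, was lower in 6 of 6 libraries. Fibroblast markers summed to 2220 CPM in cluster 6, against 311 to 1307 CPM in the other mural clusters, and their part in the result was not tested.

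Col14a1 was the member that most often separated the remaining mural clusters. It was higher in cluster 7 (391 cells, with Dlx6, Lamc3 and Frzb among its leading genes), with 206 to 352 CPM over libraries against 62.3 to 114 CPM in the other mural cells, a ratio of 3.21. It was lower in cluster 2 (1875 cells), with 35.7 CPM against 97.9 CPM, and in cluster 3 (1256 cells, led by Pappa2, Sorbs2 and Igfbp2), with 32.4 CPM against 94.2 CPM. Cluster 7 also had Col1a2 at 1573 CPM against 901 CPM and Col6a2 at 374 against 189 CPM, each higher in 6 of 6 libraries but under 2-fold. Thinning each cell to 2000 UMIs, or leaving out library 5, put 2 members of cluster 7 past the rule. The background of the rule was 4.60% of genes higher and 2.57% lower in cluster 7, 0.606% higher and 1.21% lower in cluster 2, and 2.38% higher and 2.25% lower in cluster 3.

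Cluster 4 (690 cells, compared in 3 libraries) and cluster 8 (79 cells, all in library 5) stayed unnamed because 2 genes of the cardiomyocyte list, Tnnt2 and Actc1, were among their 10 leading genes. Cluster 4 had 0 members past the rule, where 0.805% of genes were higher and 1.18% lower, and 1 member higher without library 1 or without library 2. Cluster 8 had Col3a1, Col5a1 and Col14a1 lower, where 15.1% of genes were lower and 7.19% higher, and it rests on 1 library.

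**Figure D4:**
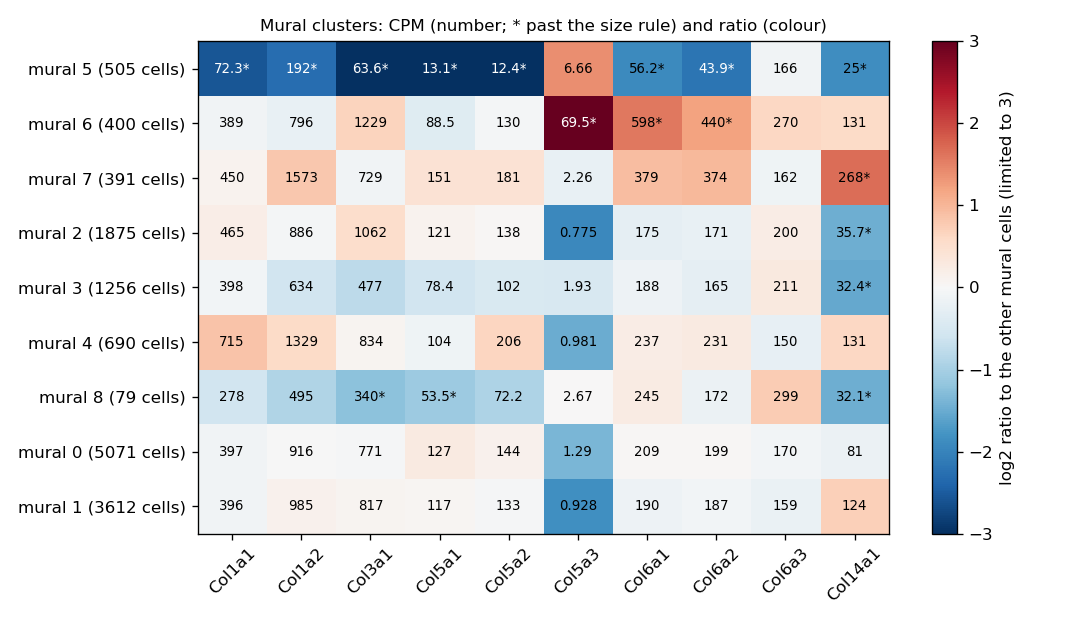
Collagen levels in the 9 mural clusters: the numbers are CPM, an asterisk marks a value past the 2-fold rule, and the colour is the log2 ratio to the other mural cells, limited to 3 in either direction. Mural cluster 5 is blue for every collagen but Col5a3 and Col6a3, and mural cluster 6 is red for Col5a3 (69.5 CPM), Col6a1 (598 CPM) and Col6a2 (440 CPM).

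Fibroblast-like cells fell into 5 clusters, and the large ones differed little. Cluster 1 (8360 cells, led by Fmod, Dio2 and Smoc2), cluster 2 (6302 cells, led by Penk and Sult1e1) and cluster 10 (1323 cells, led by Pla1a and Ugdh) had 1, 0 and 0 members past the rule. That 1 was Col5a3 in cluster 1, with 18.6 to 32.7 CPM over libraries against 46.8 to 96.2 CPM in the other fibroblast-like cells, where 2.58% of 9113 genes were lower and 1.83% higher. This call rests on library 4, the library with the highest Col5a3 level: without it, cluster 1 had 0 members past the rule. The share of genes past the rule was 1.13% higher and 1.77% lower for cluster 2, and for cluster 10 4.27% were higher and 5.28% lower. Cluster 2 had Col5a3 at 65.8 CPM against 34.3 CPM, higher in 6 of 6 libraries and under 2-fold. Leaving out library 3 or library 5 put 1 member of cluster 2 past the rule, and leaving out library 4 put 1 member of cluster 10 past it.

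Smaller differences kept 1 direction in all 6 libraries. In cluster 1, Col1a1 was 2845 CPM against 2012 CPM and Col1a2 6605 against 4355 CPM. Cluster 2 had Col3a1 (2462 against 1992 CPM), Col6a1 (662 against 531 CPM), Col6a2 (502 against 443 CPM) and Col6a3 (281 against 251 CPM) higher. It had Col1a2 (4815 against 5904 CPM), Col5a2 (211 against 245 CPM) and Col14a1 (791 against 1053 CPM) lower. In cluster 10, Col1a1 was 1624 CPM against 2575 CPM, Col1a2 3675 against 5824 CPM and Col6a3 181 against 271 CPM, while Col14a1 was 1594 against 885 CPM. Type I and type XIV messages thus ran opposite ways in cluster 10, each by less than 2-fold.

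A pair of small clusters differed more. Cluster 19 (165 cells, led by Apod, Tenm2 and Spp1) was compared in 4 libraries. Col14a1 had 0 to 73.9 CPM over libraries in cluster 19, against 742 to 1270 CPM in the other fibroblast-like cells, and was lower by a factor of 37.6. The summed cluster 19 level of 26.1 CPM (interval 17.6 to 37.2) rests on 30 UMIs. Its library range overlaps the T cell-like one given below, so the level is not distinguished from background and the factor is uncertain. Col5a3 had 160 to 271 CPM in cluster 19 against 37.0 to 59.7 CPM, a ratio of 5.02. The background was 6.88% of 9717 genes higher and 6.99% lower. Type I and type VI chains did not pass the rule there.

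Cluster 18 (189 cells, 188 of them in library 2, led by Tbx20, Wif1 and Prg4) had 7 members lower and 0 higher, where 7.64% of 9625 genes were lower and 9.55% higher. Col14a1 was 117 CPM against 987 CPM, Col1a2 1318 against 5644 CPM and Col3a1 525 against 2170 CPM. Col5a2, at 266 CPM against 234 CPM, was not lower. Its chondrocyte markers summed to 1156 CPM, against 92.0 to 396 CPM in the other fibroblast-like clusters, and their part in the result was not tested. Without library 2 the cluster could not be compared, so this description rests on 1 library.

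Schwann cell-like cells, the glia of peripheral nerves, had the highest Col5a3 level and the second highest Col14a1 level. Col5a3 had 122 to 254 CPM over libraries (median 175 CPM, summed 192 CPM, interval 181 to 204). The lowest Schwann cell-like library was above the highest fibroblast-like one, at 61.9 CPM. These 1640 cells held 16.3% of all Col5a3 UMIs. Col14a1 had 180 to 277 CPM (median 243 CPM), Col1a2 599 to 843 CPM (median 751 CPM) and Col5a2 88.8 to 144 CPM (median 115 CPM). Col6a2, at 19.3 to 32.1 CPM, lay within the range of T cell-like libraries (4.84 to 36.5 CPM) and is not distinguished from background.

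The class joined 2 clusters, which were compared after their values had been seen. Cluster 15 (642 cells, led by Fabp7, Chl1 and Cdh19) was set against cluster 12 (998 cells, with the myelin gene Mbp among its leading genes), in 5 libraries. By the rule 7 members were higher in cluster 15, where 14.1% of 9960 genes were, and 0 were lower, where 7.07% were. Col5a3 had 283 to 432 CPM in cluster 15 and 34.8 to 66.6 CPM in cluster 12, a ratio of 5.99. Col6a3 was 90.2 against 29.0 CPM, Col14a1 325 against 130 CPM and Col3a1 401 against 161 CPM. The type I chains parted: Col1a1 passed the rule (295 against 146 CPM). Col1a2 differed little, with 806 CPM in cluster 15 and 694 CPM in cluster 12. Col6a1 (55.0 against 19.2 CPM) and Col6a2 (34.6 against 14.3 CPM) also passed. Their library ranges in both clusters overlap their T cell-like ranges, so these calls are uncertain. Fibroblast markers summed to 541 CPM in cluster 15 and 708 CPM in cluster 12, and their part in the result was not tested.

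Endothelial cell-like cells showed Col5a2 apart from the other members. It had 62.4 to 83.8 CPM over libraries (median 75.3 CPM), above its 5.43 to 33.9 CPM in T cell-like libraries, whereas Col1a2 (71.4 to 292 CPM) overlapped its T cell-like range (65.0 to 178 CPM). The ratio of Col5a2 to Col1a2 was 0.578 in endothelial cell-like cells (0.280 to 1.05 over libraries), against 0.112 in T cell-like, 0.0421 in fibroblast-like and 0.148 in smooth muscle-like cells.

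The endothelial clusters, compared after their values had been seen, differed in the type V chains. Cluster 5 (2930 cells, led by Gkn3, Gja5 and Bmx, genes known from arterial endothelium) had Col5a2 at 108 to 162 CPM over libraries, against 30.7 to 59.2 CPM in the other endothelial cell-like cells, a ratio of 3.47. Col5a1 was 41.3 CPM against 14.2 CPM, a ratio of 2.90. Cluster 4 (3262 cells, led by the capillary genes Gpihbp1 and Car4) had both lower, with Col5a2 at 16.1 CPM against 98.8 CPM and Col5a1 at 11.9 against 30.3 CPM. T cell-like cells had Col5a2 at 12.9 CPM (interval 9.18 to 17.7) and Col5a1 at 15.9 CPM (11.7 to 21.1). These intervals contain the cluster 4 levels, which are therefore not distinguished from background. Col5a1 and Col5a2 were the only members past the rule in endothelial clusters. The share of genes past it was 7.06% higher and 8.54% lower in cluster 5, and 7.89% higher and 9.85% lower in cluster 4. Cluster 6 (2260 cells, led by Selp) had 0 members past the rule, with 4.42% of genes higher and 5.96% lower. Fibroblast markers summed to 1128 CPM in cluster 5, 466 CPM in cluster 4 and 858 CPM in cluster 6, and their part in the result was not tested. Col1a2 was 117 CPM in cluster 5, 106 CPM in cluster 4 and 159 CPM in cluster 6.

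Col14a1 showed a further departure. Its ratio to Col1a2 was 0.520 in macrophage-like cells (0.374 to 1.12 over 6 libraries) and 0.551 in lymphatic endothelial cell-like cells (0.268 to 1.80 over 5 libraries). It was 0.307 in Schwann cell-like cells, 0.175 in fibroblast-like cells, 0.158 in T cell-like cells and 0.151 in monocyte-like cells. The levels behind these ratios were 46.1 to 93.8 CPM in macrophage-like and 18.2 to 98.4 CPM in lymphatic endothelial cell-like libraries, against 0 to 32.6 CPM in T cell-like libraries. The lymphatic range overlaps the T cell-like one, and the macrophage-like range lies above it. Col1a2 had 83.6 to 228 CPM in macrophage-like and 41.5 to 121 CPM in lymphatic endothelial cell-like libraries. Both ranges overlap its T cell-like range of 65.0 to 178 CPM, so the ratios are uncertain.

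**Figure D5:**
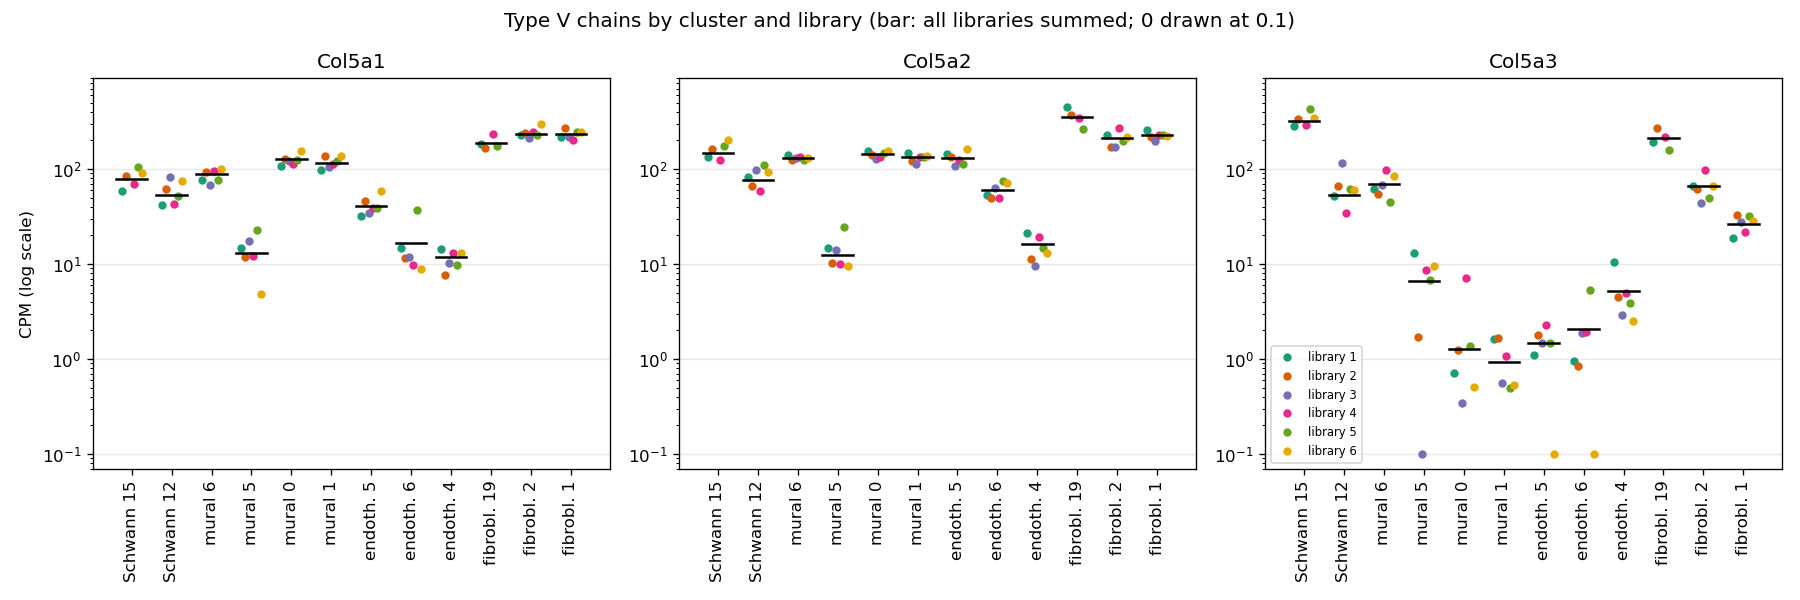
CPM (log axis) of the 3 type V chains in selected Schwann cell-like, mural, endothelial cell-like and fibroblast-like clusters, with a point per library and a bar for all libraries summed; values of 0 are drawn at 0.1. Col5a3 is highest in Schwann cluster 15 (323 CPM) and, among mural clusters, in cluster 6 (69.5 CPM), and Col5a2 is higher in endothelial cluster 5 (130 CPM) than in cluster 4 (16.1 CPM).

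Shares of cells with a UMI depend on depth, and smooth muscle-like cells were the deeper class, with a median of 10766.5 UMIs against 6442 UMIs in fibroblast-like cells. Each cell was therefore thinned to 2000 UMIs. This left out 2020 fibroblast-like, 400 smooth muscle-like, 397 Schwann cell-like and 223 T cell-like cells. The median cell then held UMIs of 6 members in fibroblast-like cells, 4 in smooth muscle-like cells, 2 in Schwann cell-like cells and 0 in T cell-like cells. At least 3 members were detected in 96.5% of fibroblast-like cells, 77.2% of smooth muscle-like cells and 3.51% of T cell-like cells.

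Col1a2 was detected in 98.4% of thinned fibroblast-like cells (98.7% unthinned) and 79.9% of thinned smooth muscle-like cells (97.4% unthinned), against 20.4% of T cell-like cells (28.7% unthinned, median 3329 UMIs). Col3a1 was detected in 78.2% of fibroblast-like and 73.2% of smooth muscle-like cells after thinning, and in 89.3% and 95.3% before it, so the order turned with depth. T cell-like cells had 15.5% after thinning and 22.9% before it. Col5a3 was detected in 21.6% of Schwann cell-like cells (32.3% unthinned) and 6.91% of fibroblast-like cells (16.2% unthinned). It was found in 0.216% of smooth muscle-like cells (0.991% unthinned) and 0.319% of T cell-like cells (0.707% unthinned). The thinned T cell-like interval, 0.0387% to 1.15%, is wide and contains the smooth muscle-like share, which is not distinguished from background.

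Between libraries, 7 of the 10 members had a wider spread in fibroblast-like cells than the median gene, whose highest library was 1.35 times its lowest. Col3a1 (1.86), Col14a1 (1.71) and Col5a3 (1.64) varied most and Col5a1 (1.18) least. Library 4 was the highest for each of those 3, and library 2 was the lowest for Col3a1 and Col14a1. In smooth muscle-like cells Col14a1 varied most (1.91, against 1.33 for the median gene), again with library 4 highest, among the 9 members with enough UMIs to compare. Col5a3 was left out there, since it had few UMIs in smooth muscle-like cells. Whether these libraries differ in genotype is not known.

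Over 52 values of class and library, the members' levels followed each other to different degrees. The values share libraries and classes, so the correlations of log2(CPM + 5) are descriptions. Col1a1 and Col1a2 had the highest Pearson r of any pair, 0.99, and the pair of Col5a3 and Col6a2 the lowest, 0.25. Among 10790 other genes, those most like Col1a1 were Mmp23 and Islr (both r = 0.96), and those most like Col3a1 were Ogn and Crispld2 (both 0.96). Col5a2 was most like Sparc (0.95) and Col15a1 (0.94), and Col6a1 was most like Ddr2 (0.96) and Pamr1 (0.95). For Col5a3 they were Pex5l and Csmd1 (both 0.97), and for Col14a1 Lama2 and Mdk (both 0.88).

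Other genes of collagen biology were followed in 6 lists by the same fibroblast-like to smooth muscle-like rule. Of 12 other collagens that reached 10 CPM, 6 were higher in fibroblast-like cells and 2 lower. These shares stand beside 15.9% and 10.4% of all genes compared, as do those of the lists that follow. Col6a5, a further type VI chain, was higher in fibroblast-like cells (26.0 against 0.205 CPM), and Col18a1, of basement membranes, was lower (84.6 against 980 CPM). Col4a1, also of basement membranes, was 358 against 571 CPM and not past the rule. Col11a1 (160 CPM) and Col27a1 (180 CPM), further fibrillar chains named here after their values had been seen, were highest in Schwann cell-like cells in 6 of 6 libraries, as Col5a3 was.

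Genes that modify and fold the chains had a median log2 ratio of 0.77, against 1.43 for the 10 collagens. Of 18 such genes compared, 4 were higher in fibroblast-like cells and 1 lower, and 13 were not past the rule. Serpinh1, the collagen chaperone, had 1457 CPM in the fibroblast-like class and 658 CPM in the smooth muscle-like class, and Ppib, a prolyl isomerase, 865 and 349 CPM. Creb3l1, a transcription factor of the secretory pathway, had the largest ratio in this list (112 and 32.8 CPM). P3h2, a prolyl hydroxylase acting on basement membrane collagen, was lower (4.91 and 47.5 CPM).

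Of 8 genes for propeptide processing and crosslinking, 5 were higher in fibroblast-like cells and 0 lower. Pcolce (998 against 45.5 CPM) and Pcolce2 (770 against 51.9 CPM), enhancers of procollagen C-proteinase, were both higher. The crosslinking enzyme Loxl3, at 44.3 against 39.3 CPM, was not past the rule. Of 7 fibril assembly partners, 5 were higher, Tgfbi by most (1213 against 14.0 CPM) and Sparc by 2.12-fold (4766 against 2245 CPM). Aebp1 (1872 against 987 CPM) and Fn1 (1138 against 1589 CPM) were not past it.

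Receptors of collagen split by class. Of 9 compared, 6 were higher in fibroblast-like cells and 3 lower. Mrc2, an endocytic collagen receptor, was 146 CPM in fibroblast-like cells, against 33.4 CPM in smooth muscle-like cells. The integrin chains Itgb1 (344 and 1350 CPM) and Itga1 (94.6 and 255 CPM) were lower in fibroblast-like cells. Among the named classes, Itga1 was highest in endothelial cell-like cells (448 CPM, in 6 of 6 libraries). Of 6 genes for collagen breakdown and its inhibitors, 5 were higher and 0 lower. Mmp2, a gelatinase, was 461 and 21.7 CPM, and the inhibitor Timp2 was 3010 and 469 CPM. Timp3, at 1817 and 1240 CPM, was not past the rule. It was higher in lymphatic endothelial cell-like cells (3143 CPM, highest in 6 of 6 libraries) and endothelial cell-like cells (2398 CPM).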

How the data were processed

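Single cells of mouse aortic tissue from 3 Best3SMKO and 3 Best3FL/FL samples were measured on the 10x Genomics platform. The values used are raw UMI counts in a single matrix that the authors deposited, with 55450 genes and 60871 barcodes, written by cellranger 6.1.2 per the file headers. The submitters' processing notes name bcl2fastq 5.01, Cell Ranger 3.1.0, Seurat 3.1.1 and GRCm38. The counts are not scaled. No source used here states whether depth was equalised between libraries. GENCODE M21 held all 55450 gene IDs.

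The barcode suffixes match no sample label, so knockout and control were not compared and no p-value is given. Libraries are not replicates of a known group, so each is given alone or by range and median.

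Barcodes with at least 500 genes and at most 20% mitochondrial UMIs were kept. Doublets called by Scrublet in scanpy 1.11.5 (2.99% to 9.27% per library) were removed. Each cell was scaled to 10000 UMIs, followed by a log transform. From these values 2000 variable genes, 30 principal components, 20 neighbours and leidenalg 0.10.2 at resolution 0.5 gave 20 clusters. The members, the 75 listed genes, and mitochondrial and ribosomal protein genes were left out. A cluster took the name of the best of 25 marker lists. It stayed unnamed with fewer than 3 markers, with leading genes of another list, with a median depth below its libraries' median divided by 3, or with a second list within 0.5 log2 units. A first clustering on genes scaled to unit variance mixed marker lists and was dropped. That choice, the 0.5 margin, the rule on leading genes and the second clustering of mural cells were made after clusters had been seen.

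Comparisons used a size rule: at least 2-fold in summed CPM, 1 direction in all libraries that had 20 or more cells on both sides, and at least 10 CPM on 1 side. Intervals are exact 95% intervals and cover counting error only. Named genes were the members, per list the 2 highest and the largest ratio each way among genes of at least 20 CPM in either class, the 2 most correlated genes per member, and Best3. The size rule was tested on simulated data. The Schwann cell-like and endothelial cell-like clusters were compared after their values had been seen. The members and lists were chosen with earlier results of these data known. Python 3.11.15, numpy 2.4.6, scipy 1.17.1 and pandas 2.3.3 were used.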

Additional observations from a re-analysis of the deposited data

Results flagged for a closer look

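Col5a3 in fibroblast-like cells was 61.9 CPM in library 4 and between 37.7 and 41.8 CPM in the other 5 libraries. The gap to the nearest library was 0.832 of the whole range, above Dixon's 95% critical value for 6 values. Of 19 sets of library values examined, 1 stood out in this way, and chance gives about 1 in 20.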

How the results depend on the processing

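No paired analysis was possible because no cell could be tied to a sample. Of 10 members, 9 were highest in fibroblast-like cells, and 4 at resolution 1.0 and 4 with doublets kept, where cluster 13 received a name; the other alternatives gave 9. The number called higher in fibroblast-like than in smooth muscle-like cells was 7, and it was 8 in several alternatives, 10 at 1.5-fold and 4 at 4-fold, and 7 to 8 leaving out each library. Between fibroblast-like clusters 10 values were called, 18 at 1.5-fold, 5 at 4-fold and 3 to 11 without each library, with 3 lacking library 2, where cluster 18 drops out. Without library 4 the total stayed at 10 because cluster 1 lost its call and cluster 10 gained 1. Between mural clusters 17 were called, 29 at 1.5-fold, 7 at 4-fold and 15 to 18 without each library. Of the members, 6 were detected in more than 50% of fibroblast-like cells thinned to 2000 UMIs and 3 at 1000 UMIs. Of 150 log2 ratios of single members recomputed under 15 settings, 144 moved by less than the spread between libraries, 6 by more and 0 turned direction. Col5a3 moved most, with a log2 ratio of 5.26, 4.02 at 10% mitochondrial UMIs and 3.78 with classes from single-cell markers; the cause was not tested. The fold limit does not enter the count of genes highest in a class.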
